A study of Mus musculus with 12 samples.

Results

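The genes described here are Zap70 and 8 genes that act beside it at the T cell receptor or, for Syk, at its counterparts on other immune cells: Lck, Lat, Cd3e, Cd3g, Cd3d, Cd247 and Cd2. They were taken by name, 9 of the 46882 gene names in a table of fragment counts from mouse liver. Zap70 was chosen by its measured counts, because it was lower in A1cf -/- liver, so its difference between the genotypes is given as a description, without a test. The other 8 were picked for their function. The question was whether Zap70 varied over the libraries as T cell genes do or stood apart from them.

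RNA came from whole livers of C57BL/6 mice aged 6 to 8 weeks, 6 wild-type (WT) and 6 A1cf -/- (KO), 1 library each, which the series describes as biological replicates. A1cf encodes an RNA-binding partner of the cytidine deaminase APOBEC1. The labels name no treatment, and how the A1cf allele was made is not given in the sources used here. Libraries are named by genotype and the number in their title, and held 22129092 to 51082317 counted fragments. A1cf itself was at 47.9 to 53.8 CPM (counts normalised to library size, with TMM scaling, the trimmed mean of M values) in WT and at 8.20 to 12.6 CPM in KO, with no overlap. The hepatocyte gene Alb, at 62582 to 81680 CPM in WT and 56994 to 76426 CPM in KO, fitted the labelled tissue.

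In a T cell, the receptor has no enzyme activity of its own. The chains encoded by Cd3e, Cd3g, Cd3d and Cd247 carry tyrosine motifs (ITAMs) that the kinase LCK phosphorylates. ZAP70 then binds the doubly phosphorylated motifs through its paired SH2 domains and phosphorylates the membrane adaptor LAT and the cytosolic adaptor SLP-76. SYK, the only other kinase of the same family, does this work at ITAM receptors of B cells and myeloid cells. CD2 is an adhesion receptor of T and NK cells. In the liver such transcripts are usually read as a sign of resident or passing lymphocytes.

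Zap70 lies on chromosome 1 at 36761798 to 36782818 on the plus strand of mm10. RefSeq (GRCm38.p6) gives promoter windows, from 250 bases before to 50 after a transcript start, for 8 of the 9 genes. There were 12 windows in all and 3 for Zap70, with starts at 36761798, 36764515 and 36778984. The counts were summed over all exons of a gene, so they do not tell from which start the Zap70 fragments came. Short stretches are shown to place Zap70 beside its T cell partners, since ETS and RUNX factors are known regulators of T cell genes. They run 5′ to 3′ on the gene's own strand, and capitals mark a match to AGGAAG, an ETS-type motif, or to TGTGGT, a RUNX-type motif, on either strand.

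Zap70, first start, chr1:36761652-36761681, plus strand: tacaatccccacCTTCCTcttgtgttcccg
Zap70, second start, chr1:36764465-36764494, plus strand: gtgtgttagcacAGGAAGgaactgtgcttg
Zap70, second start, chr1:36764428-36764457, plus strand: tgagcaggttccTGTGGTgggagggaggac
Lck, upstream start, chr4:129573706-129573735, minus strand: gtctatggcagcAGGAAGcctgaggtgctg
Cd3e, chr9:45009611-45009640, minus strand: gtcccctctacaCTTCCTgtgtggggttca

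AGGAAG was present in 8 of the 12 windows and in 6 of the 8 genes (Zap70, Lck, Lat, Cd3e, Cd3d and Cd247), against 35.4% of all 32851 promoter windows of that length. TGTGGT was present in windows of Zap70, Lck and Lat, against 16.8% of all windows. A pair of motifs bound by liver factors was searched in the same way. GTTAAT, an HNF1-type half-site, was in none of the 12 windows (7.1% of all windows), and AGGTCA, a nuclear receptor half-site, was in 1, at the third Zap70 start (16.3% of all windows). These are matches of letters, and no binding was measured.

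Zap70 was by far the most abundant of the 9 transcripts. In WT it had 284 to 592 fragments per library, with a lowest value of 10.4 CPM, a median of 13.6 CPM and a highest value of 19.1 CPM. In KO it had 83 to 275 fragments, with values of 3.49, 5.10 and 7.19 CPM. Every KO library lay below every WT library; groups that do not overlap, in either direction, made up 3.3% of tested genes. The means were 13.9 ± 3.0 CPM in WT and 5.02 ± 1.32 CPM in KO (SD, n = 6 each), so that KO stood at 36.1% of WT, a log2 difference of −1.47 ± 0.18 (SE) in the fit over all genes. This is the value for which Zap70 was picked. The labels number the libraries 573 to 602 (3 WT, 5 KO) and 776 to 780 (3 WT, 1 KO), and the difference of mean log2 CPM was −1.60 in the first range and −1.72 in the second, where it rests on KO 780 alone. In bulk liver RNA, fewer cells of a type and less RNA per cell cannot be told apart.

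The CD3 chains were close to the limit of detection. Cd3e, whose product is part of every receptor complex, had values of 0.110, 0.256 and 0.572 CPM (lowest, median, highest) in WT and of 0.155, 0.313 and 0.599 CPM in KO. Its counts ran from 3 to 21 fragments, and WT and KO overlapped over most of their range. Cd3g had 2 to 17 fragments, with medians of 0.202 CPM in WT and 0.309 CPM in KO. Cd3d had 1 to 14 fragments, with medians of 0.133 and 0.254 CPM. Cd247, which encodes the zeta chain with its 3 ITAMs, had 1 to 9 fragments, with medians of 0.110 and 0.191 CPM. Genotypes overlapped in all 4 chains. At these depths 3 fragments, the most that would be compatible with finding 0, equal 0.0590 to 0.131 CPM (counting error only), and several of these values sit at that level. The span of Cd247 overlaps that of Pou2f1 on the other strand, and the counting set no strand option, so its few fragments are uncertain.

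The kinase and the adaptor that flank ZAP70 in the pathway were little higher. Lck, the kinase that prepares the ITAMs, had values of 0.328, 0.513 and 0.993 CPM in WT and of 0.460, 0.620 and 0.737 CPM in KO. Lat, the adaptor that ZAP70 phosphorylates, had values of 0.429, 0.580 and 0.772 CPM in WT and of 0.177, 0.580 and 1.05 CPM in KO. The KO libraries of Lck lay within the WT range, whereas those of Lat ran beyond it at both ends. Cd2 had 2 to 17 fragments, with medians of 0.170 CPM in WT and 0.214 CPM in KO, and its highest value, 0.601 CPM, was in KO 574.

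Per length of exon, the order was the same at its head in both genotypes. Zap70 stood at 4.65 ± 1.01 CPM per kb in WT and 1.68 ± 0.44 in KO (SD, n = 6), followed by Syk at 0.334 ± 0.10 and 0.584 ± 0.192. In WT, Lat (0.216 ± 0.042), Lck (0.216 ± 0.095), Cd3g (0.208 ± 0.120) and Cd3e (0.203 ± 0.141) came next and did not differ beyond their spread. Cd3d (0.113 ± 0.091), Cd2 (0.103 ± 0.047) and Cd247 (0.0208 ± 0.0097) stood at the foot. Zap70 was thus 21.5 times as high as Lck and 23.0 times as high as Cd3e per kb in WT. In KO these ratios were 8.04 and 6.88, so Zap70 remained above each T cell gene also after its difference between the genotypes.

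**Figure D1:**
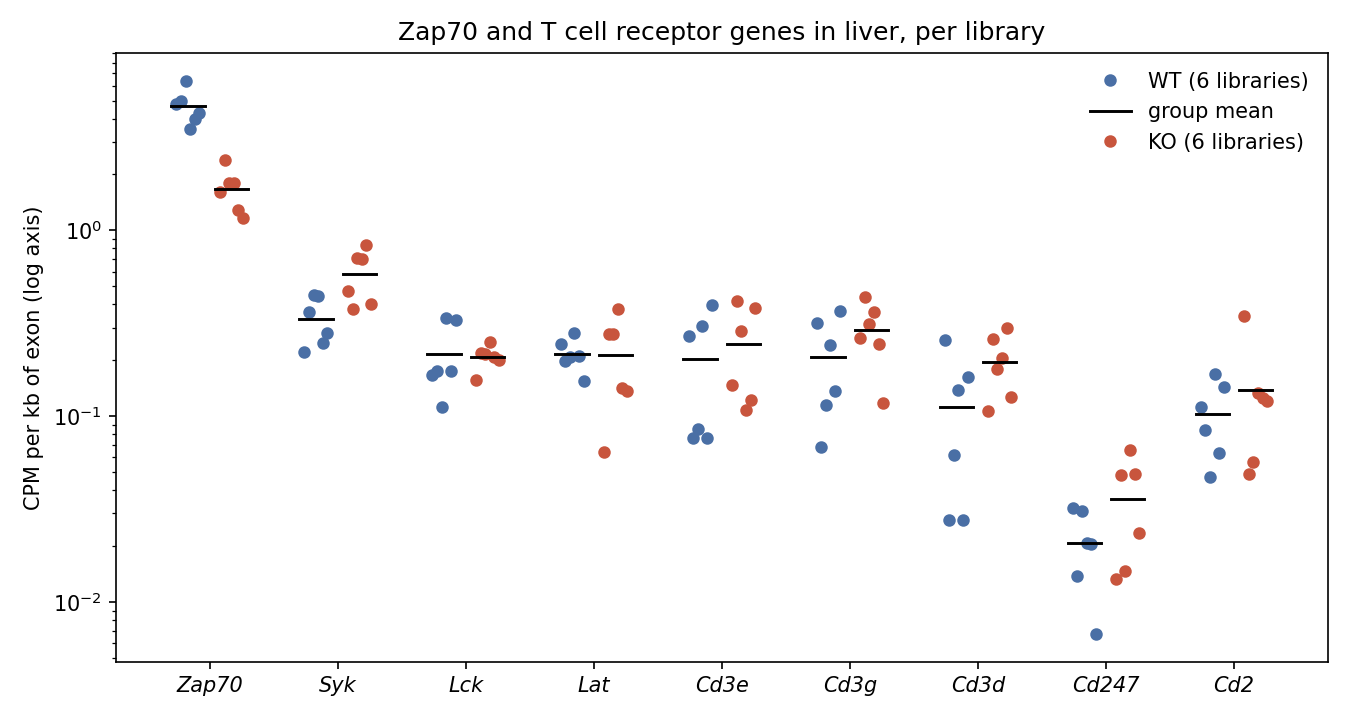
Level of the 9 genes in each library, in CPM per kb of exon on a log axis, with 6 WT (blue) and 6 KO (red) libraries per gene and the group mean as a bar. Zap70 lies above the other 8 genes in both genotypes, at means of 4.65 and 1.68 CPM per kb; its separation by genotype is what it was chosen for, and the other 8 overlap.

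The members were then compared between KO and WT in the fit over all 13706 tested genes (edgeR's quasi-likelihood test, Benjamini-Hochberg adjustment, threshold 0.05), in which 3.82% of genes passed. Of the 9 genes, 5 passed the filter on low counts, and of the 4 apart from Zap70 none passed the threshold. At an unadjusted p under 0.05 there was 1, Syk, which DESeq2 also called and limma-voom did not. DESeq2, which filtered genes in its own way, called 3.43% of 15900 genes higher and 4.05% lower. Over all 13706 tested genes, 11.3% were higher and 9.9% lower at an unadjusted p under 0.05, and limma-voom called 1.93% higher. The log2 change was −0.05 ± 0.27 (SE) for Lck (adjusted p = 0.94), −0.01 ± 0.34 for Lat (adjusted p = 0.99) and 0.24 ± 0.47 for Cd3e (adjusted p = 0.82). These errors are wide: for Cd3e they leave room for a difference of 2-fold, and at these counts no difference was detected. Without the filter, the changes of the remaining genes were 0.44 ± 0.40 for Cd3g, 0.67 ± 0.47 for Cd3d, 0.66 ± 0.50 for Cd247 and 0.37 ± 0.47 for Cd2 (SE), with adjusted p-values in the same test between 0.53 and 0.73. In that fit 1.65% of 26090 genes passed. The signs of Lck and Lat changed with other settings, and that of Cd2 turned to −0.16 without KO 574. In the settings run, those of Cd3e, Cd3g, Cd3d and Cd247 did not.

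Syk, the other kinase of the family, had higher values in most KO libraries. They were 2.06, 3.01 and 4.23 CPM in WT and 3.55, 5.51 and 7.86 CPM in KO. KO 574, 588, 591 and 602 lay above every WT library, and KO 584 and KO 780 lay within the WT range. The log2 change was 0.81 ± 0.24 (SE), with an adjusted p of 0.077 in edgeR's quasi-likelihood test and of 0.0226 in DESeq2. Myeloid genes moved with it. The summed level of 11 Kupffer cell and macrophage markers was 134 to 222 CPM in WT and 138 to 491 CPM in KO, lowest in KO 584 and highest in KO 602 among the KO libraries, as Syk was. Within genotypes, log2 Syk and this sum had a Pearson r of 0.66 in WT and 0.95 in KO (6 libraries each, all genes of a library sharing its scaling). The sum of 7 neutrophil and monocyte markers, 3.26 to 9.27 CPM in WT and 5.05 to 26.4 CPM in KO, had an r with Syk of 0.94 in WT and 0.92 in KO. The part of these cells in the Syk values was not tested.

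To set Zap70 against T cell content in each library, the fragments of Lck, Lat, Cd3e, Cd3g, Cd3d, Cd247 and Cd2 were summed. The sum held 36 to 130 fragments per library. It was 1.48, 2.11 and 3.05 CPM (lowest, median, highest) in WT and 1.94, 2.44 and 3.18 CPM in KO, and the genotypes overlapped. For each fragment of these 7 genes there were 3.42, 6.45 and 12.9 Zap70 fragments in WT and 1.63, 1.91 and 2.47 in KO. This ratio carries the Zap70 difference that Zap70 was chosen for, over a sum that overlaps, and is a description. WT 601 had the highest Zap70 level of the WT libraries and the lowest sum, whereas WT 776 had the lowest Zap70 level and the highest sum. Among KO libraries, Zap70 was highest in KO 584, whose sum of 3.17 CPM was just below the highest, 3.18 CPM in KO 591. Over the 6 libraries of a genotype, r of log2 Zap70 with this sum was −0.60 in WT and 0.72 in KO. With the sum of B cell markers it was −0.87 in WT and −0.03 in KO, and with that of NK and cytotoxic cell markers −0.61 and 0.56. Most of the B cell sum in WT was Igkc, with a mean of 13.8 CPM against 21.2 CPM for the sum. Its own r with Zap70 in WT was −0.94, whereas that of Ighm was −0.04. Both genes were named after their values were seen, so the B cell sum says little of the other markers. WT 776 also had the highest B cell sum, 40.1 CPM, and the highest NK sum, 10.7 CPM, of all libraries, and the part of these cells in the WT values was not tested.

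**Figure D2:**
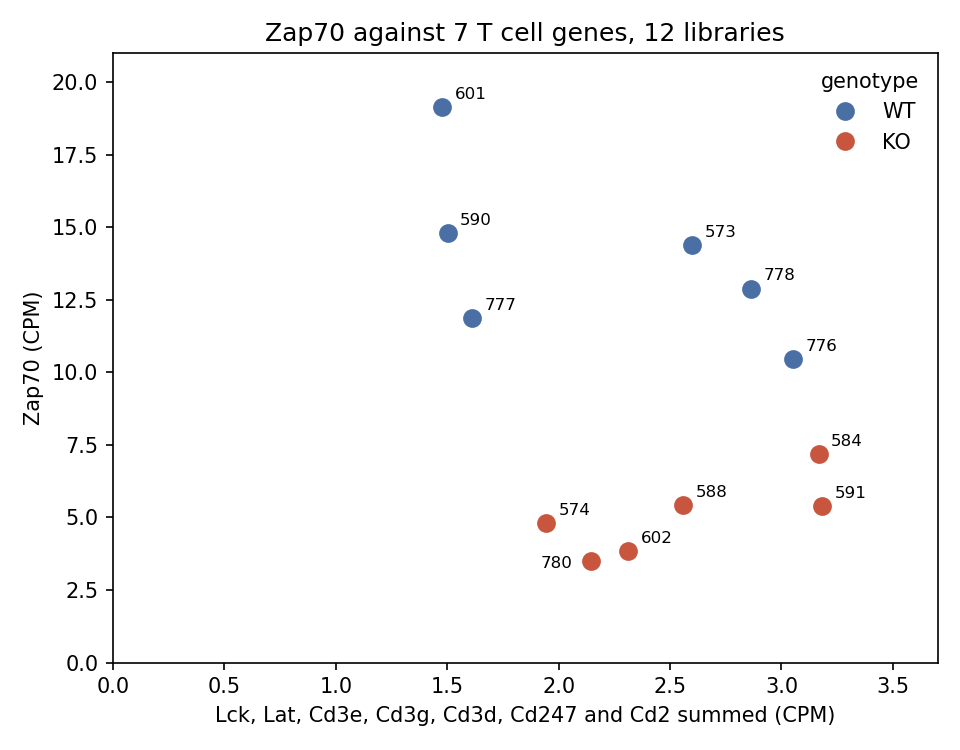
Zap70 (CPM) against the sum of 7 T cell genes (CPM) in 12 libraries, labelled by library number, WT in blue and KO in red. The 2 genotypes share a range on the x axis, 1.48 to 3.05 CPM in WT and 1.94 to 3.18 CPM in KO, and differ on the y axis by the difference that Zap70 was chosen for.

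Because Zap70 separates the genotypes, its relation to each other gene was taken within WT and within KO, which does not use the difference between them. Of the 16 relations (8 genes in 2 genotypes, log2 CPM, 6 libraries each), none passed an exact two-sided permutation test of the pairings after Benjamini-Hochberg adjustment, and 1 had an unadjusted p under 0.05, also by rank. That was Cd3g in KO, with a Pearson r of 0.91 (exact p = 0.0139, adjusted p = 0.222) and a Spearman rho of 0.94 (exact p = 0.0167, adjusted p = 0.267). Without the 2 libraries farthest from the median of Zap70, r was 0.85. In WT the same gene had an r of −0.41 (exact p = 0.429). With 6 libraries, a lone relation could pass only if its r was among the most extreme of the 720 pairings, so a moderate relation would be missed.

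In WT, r between Zap70 and the T cell genes was below 0 for 6 of 7, with a median of −0.41. The lowest were Lck at −0.81 (exact p = 0.0528, adjusted p = 0.422; rho −0.71, exact p = 0.136) and Cd2 at −0.70 (exact p = 0.115, adjusted p = 0.615; rho −0.66, exact p = 0.175). Without WT 601 and WT 776 these were −0.30 and 0.26 over 4 libraries. Those 2 libraries hold the highest and lowest Zap70 values, so r can weaken for that reason alone. With any 1 WT library left out, r ran from −0.92 to −0.64 for Lck and from −0.97 to −0.39 for Cd2. In KO, r was above 0 for 6 of 7, with a median of 0.29. Cd3e had an r of −0.46 in WT (exact p = 0.381) and 0.22 in KO (exact p = 0.646), and Syk one of 0.20 (exact p = 0.706) and −0.19 (exact p = 0.693). The sign of r differed between the genotypes for 5 of the 7 T cell genes. Among themselves, the 7 T cell genes had a median r of 0.41 over 21 pairs in WT, 15 of them above 0, and of 0.14 in KO, with 12 above 0. In WT the highest of these were Cd3e with Cd3g (0.94), Lck with Cd2 (0.91) and Cd3g with Cd3d (0.90), and the lowest was Lck with Cd247 (−0.66). In KO, Lck with Lat was highest (0.94), and Cd3e with Cd3g was at −0.14.

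The WT values of Zap70 also split by library number, at 14.4 to 19.1 CPM in libraries 573 to 602 and 10.4 to 12.9 CPM in libraries 776 to 778. Lck was at 0.328 to 0.513 CPM in the first range and 0.513 to 0.993 CPM in the second. With 3 WT libraries in each range, no correlation was tested within them. After the WT libraries were centred on their range, r with Zap70 was −0.50 for Lck, −0.61 for Cd2, −0.64 for Lat and −0.11 for Cd247, and below 0 for 7 of 7 T cell genes (median −0.25; a description over 6 libraries). KO had 1 library in the second range.

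The genes whose pattern was most like that of Zap70 were sought among 11952 others with a mean of at least 1 CPM, by Pearson's r of deviations from the genotype means over 12 libraries. They were Fkbpl (0.90), Mbl2 (0.88), Xrcc6 (0.88), H2-T10 (0.86), Trpt1 (0.85) and Fam188b (0.85), with 1 unnamed gene model passed over. These are the highest of 11952 values over 12 libraries and carry no test. Among so many genes, chance alone could give values this high. This ranking took no account of the number ranges. In libraries 573 to 602 alone, r of these 6 ran from 0.70 for H2-T10 to 0.93 for Xrcc6. The genes were picked on those same libraries among the 12, so this is no separate check. Mbl2 encodes a mannose-binding lectin secreted by hepatocytes, and Xrcc6 the Ku70 subunit of DNA repair. H2-T10 belongs to a family with near-identical copies, so its reads are uncertain. None of these 6 passed the threshold between the genotypes in the fit with genotype as the only term. Their log2 changes in that fit ran from −0.52 for H2-T10 and Mbl2 to 0.18 for Trpt1. With the number range as a further term, edgeR's quasi-likelihood test called H2-T10 (−0.65, adjusted p = 0.018) and Mbl2 (−0.70, adjusted p = 0.022). DESeq2 also called H2-T10 (−0.53, adjusted p = 0.020). Syk, the only other member above that floor, stood at r = −0.03 and rank 6599. By plain log2 CPM over the 12 libraries, a measure that includes the genotype difference itself, the nearest were Ppa2 (0.96), Pcbd1 (0.95), Tmx2 (0.95), Impa1 (0.95), Cdadc1 (0.94) and Ndnl2 (0.94), of which Ppa2 encodes a mitochondrial pyrophosphatase and Pcbd1 a pterin dehydratase and cofactor of HNF1. The 7 T cell genes were below 1 CPM and took no part in either search.

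Other genes of the receptor pathway were taken from a list of 50, of which 31 were tested. In KO, 3 rose and none fell, against 1.72% of all tested genes that rose. At an unadjusted p under 0.05, 8 of the 31 were higher and 1 was lower. DESeq2 called 5 higher and 1 lower, and limma-voom called 4 higher and none lower. The median log2 change was 0.18, against 0.01 over all tested genes, and 25 of 31 lay above 0, against 51.8% of all tested genes.

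Lcp2, which encodes SLP-76, a direct target of ZAP70 in T cells and of SYK in myeloid cells, rose from 1.94, 2.33 and 2.76 CPM in WT to 3.03, 4.14 and 5.89 CPM in KO (lowest, median, highest). The genotypes did not overlap, which held for 1.33% of tested genes with KO above, and the log2 change was 0.88 ± 0.16 (SE; adjusted p = 0.0082, edgeR's quasi-likelihood test). Icos, a costimulatory receptor of T cells, rose by 0.97 ± 0.24 (adjusted p = 0.040), from a WT median of 0.317 CPM to a KO median of 0.606 CPM, also without overlap. Rasgrp1, which links the receptor to Ras, rose by 0.89 ± 0.22 (adjusted p = 0.041), with overlap. The calls of Icos and Rasgrp1 are less certain. That of Icos was lost without WT 573, 601 or 777 and without KO 574, 588, 591, 602 or 780, and that of Rasgrp1 without any one library other than WT 776 or KO 780, with adjusted p-values of at most 0.096. Neither passed without the filter on low counts, and Rasgrp1 did not with the number range as a term. None of the 3 passed in libraries 573 to 602 alone.

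Among 10 tested Src and Tec family kinases, the group that holds LCK's relatives, Src rose by 0.85 ± 0.20 (SE; adjusted p = 0.034) and none fell. None of the 10 was lower at an unadjusted p under 0.05, and neither DESeq2 nor limma-voom called one lower. Src had values of 1.07, 1.38 and 2.16 CPM in WT and of 2.06, 2.65 and 3.54 CPM in KO, with overlap. Its call was lost without WT 573, 601, 776 or 777 and without KO 574, 588, 591 or 602 (adjusted p of at most 0.083), and also with the number range as a term and in libraries 573 to 602 alone. The median of the 10 was 0.25. Over all tested genes, 1.72% rose and 11.3% were higher at an unadjusted p under 0.05, and DESeq2 called 3.43% of the genes in its own test higher. Of 14 tested ITAM adaptors and receptors that signal through SYK, none passed, whereas 6 were higher at an unadjusted p under 0.05 and DESeq2 called 2. Their median was 0.60 and 13 of 14 lay above 0, led by Tyrobp, which encodes the adaptor DAP12 (0.81 ± 0.24, SE; adjusted p = 0.079), and the Fc receptor gene Fcgr4 (0.84 ± 0.27; adjusted p = 0.105).

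**Figure D3:**
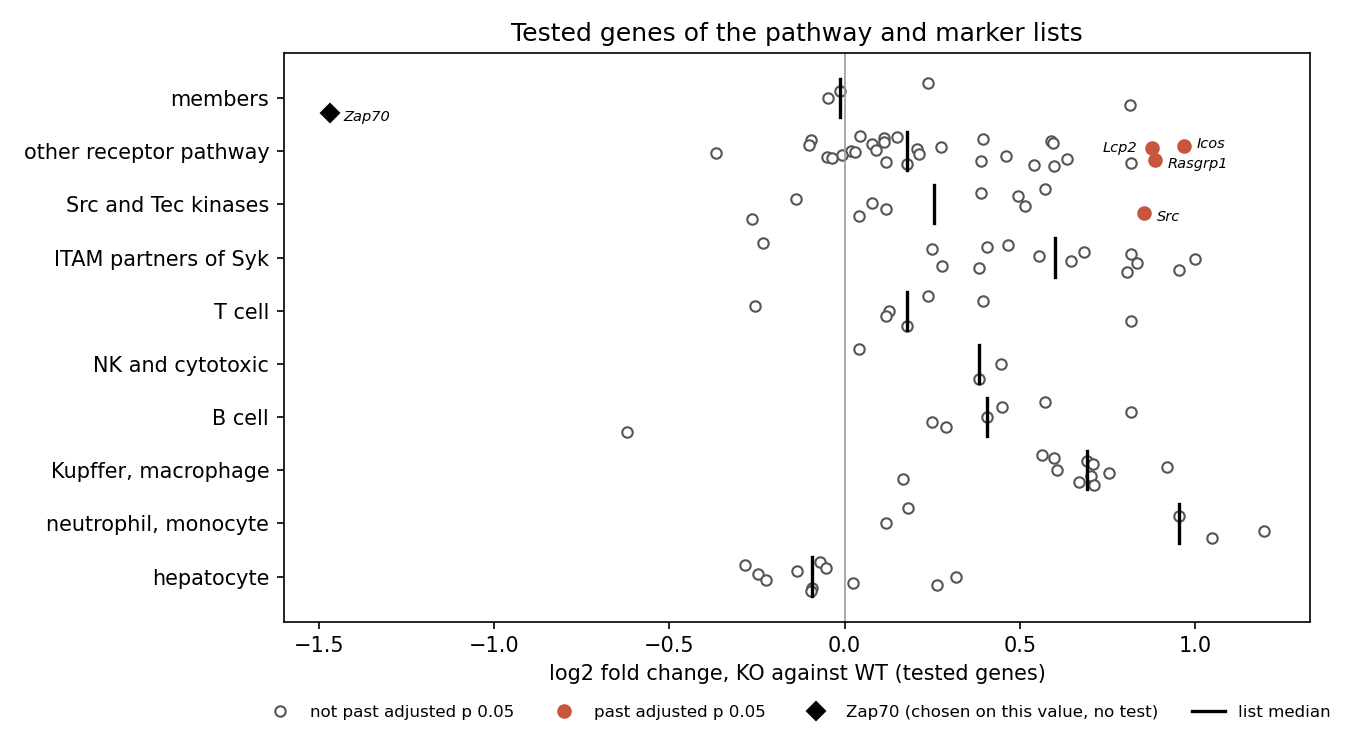
Log2 fold change of KO against WT for each tested gene of 10 lists, filled red and named where past an adjusted p of 0.05, with the median of each list as a bar. Zap70 (black diamond, −1.47) was chosen on this value and carries no test, and most genes of the lymphoid and myeloid lists lie above 0.

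Markers of the cells that could carry Zap70 were followed in the same fit, and no listed marker was at 0 in all 12 libraries. Of 18 T cell markers 7 were tested, with a median log2 change of 0.18 and 6 above 0. None passed, none had an unadjusted p under 0.05 and neither DESeq2 nor limma-voom called any. The receptor chain gene Trbc1, which has a near-identical copy, was at 0.82 ± 0.43 (SE; adjusted p = 0.30), and Cd4 at 0.40 ± 0.30 (adjusted p = 0.48). Their summed level was 6.34 to 13.1 CPM in WT and 8.62 to 14.1 CPM in KO. NK cells also use ZAP70. Of 14 NK and cytotoxic cell markers 3 were tested and none passed, by edgeR at an unadjusted p under 0.05, by DESeq2 or by limma-voom. They were Il2rb (0.45 ± 0.36, SE), Klrk1 (0.38 ± 0.38) and Ccl5 (0.04 ± 0.48). The untested markers went both ways in the fit without the filter on low counts. Prf1 was at −0.67 ± 0.75 and Klrd1 at −0.55 ± 0.43, whereas Klra8 was at 0.65 ± 0.73 and Tbx21 at 0.60 ± 0.56 (SE). The sum of all 14 was 1.14 to 10.7 CPM in WT and 4.37 to 5.44 CPM in KO. The sums of both lists overlapped between the genotypes. The T cell sum, with a WT mean of 10.2 CPM, was carried mostly by Tcf7 (3.12 ± 0.15 CPM in WT, SD, n = 6) and Themis (3.03 ± 2.87 CPM), named after their values were seen, so it says little of the other markers.

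None of the 7 tested B cell markers passed. Their median was 0.41 and 6 lay above 0 (Cd22 0.82 ± 0.28, Blk 0.57 ± 0.29, SE). Igkc, the most abundant of them, was at −0.62 ± 0.45 (SE). The sum of all 9 listed B cell markers had means of 21.2 CPM in WT and 18.6 CPM in KO, with overlap. Of the tested markers, 1 had an unadjusted p under 0.05, and DESeq2 and limma-voom called none. For Kupffer cells and macrophages the median was 0.69 and all 11 genes were above 0 (Csf1r 0.70 ± 0.23, Clec4f 0.75 ± 0.25). None passed in edgeR's test over all libraries, 10 had an unadjusted p under 0.05, DESeq2 called 3 and limma-voom none. Without KO 584, edgeR's test called Csf1r (0.85, adjusted p = 0.011) and Clec4f (0.92, adjusted p = 0.0074). Of 5 tested neutrophil and monocyte markers none passed, with 1 at an unadjusted p under 0.05, 1 called by DESeq2 and none by limma-voom (median 0.96; Csf3r 0.96 ± 0.26, S100a8 1.20 ± 0.70). The 11 hepatocyte markers had a median of −0.09, with Hnf4a at −0.22 ± 0.10 and Cyp2f2 at 0.32 ± 0.14. None passed, 3 had an unadjusted p under 0.05 (1 higher, 2 lower), and DESeq2 and limma-voom called none. Over all tested genes, 11.3% were higher and 9.9% lower at an unadjusted p under 0.05. The counts of the B cell and hepatocyte lists, of few genes, lay near those shares. DESeq2 called 3.43% of the genes in its own test higher.

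The neighbourhood of Zap70 was read from the coordinates of the table (mm10). Besides Zap70, 9 genes within 300 kb were tested, and 2 of them fell in KO, against 2.09% of all tested genes. Actr1b, a subunit gene of the dynactin complex 47.4 kb to the left, had values of 62.4, 71.7 and 74.5 CPM in WT and of 51.3, 52.3 and 57.6 CPM in KO. It fell by 0.39 on the log2 scale (SE 0.06; adjusted p = 0.0044, edgeR's quasi-likelihood test). Vwa3b, 244 kb to the right, had values of 2.04, 2.59 and 3.33 CPM in WT and of 0.707, 1.41 and 1.62 CPM in KO, and fell by 1.06 (SE 0.20; adjusted p = 0.011). In both the genotypes did not overlap, which held with KO below for 1.97% of tested genes.

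The calls of Actr1b and Vwa3b were lost in libraries 573 to 602 alone. The other 7 neighbours did not pass. Tmem131, the nearest at 9.37 kb and the only tested one between Zap70 and Vwa3b, was at −0.07 ± 0.12 (SE; adjusted p = 0.78) and Cox5b, a subunit gene of cytochrome c oxidase, at −0.08 ± 0.08 (adjusted p = 0.59, edgeR's quasi-likelihood test). The others, farther to the left, were Cnnm3 (−0.02 ± 0.11), Cnnm4 (0.02 ± 0.16), Ankrd23 (0.11 ± 0.14), D430040D24Rik (0.17 ± 0.34) and Sema4c (0.32 ± 0.24). The sign of Cnnm3, Cnnm4 and Tmem131 changed with other settings. Genes annotated within the span of Zap70 had no fragment in any library.

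**Figure D4:**
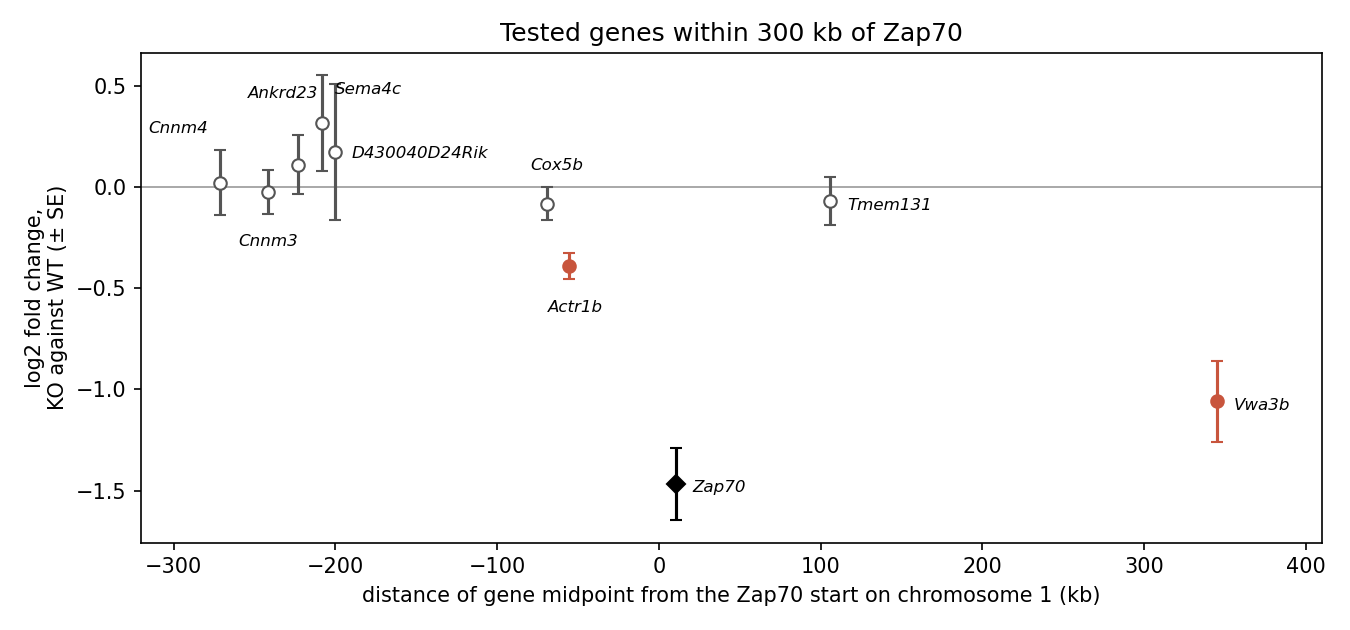
Log2 fold change of KO against WT (± SE) for the tested genes within 300 kb of Zap70, by the distance of the gene's midpoint from the Zap70 start in kb, filled red where past an adjusted p of 0.05, with Zap70 as a black diamond without a test. Actr1b and Vwa3b lie at −0.39 and −1.06, and Tmem131, between Zap70 and Vwa3b, lies at −0.07.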

How the data were processed

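Liver RNA libraries of 6 WT and 6 A1cf -/- mice were grouped by the genotype in their labels. Per the file headers, the authors deposited unnormalized fragment counts for each gene name, from featureCounts 1.5.0-p2 over GENCODE M8 exons without a strand option; STAR, DESeq2 and mm10 are named in the submitters' processing notes. The deposited exonic length, another value per gene, was used for levels per kb. Every count column was mapped to a sample.

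The principal model of these counts used edgeR 4.0.16 under R 4.3.3 (filterByExpr with a minimum count of 10, TMM scaling, robust quasi-likelihood test, genotype as the only term) and limma 3.58.1 and DESeq2 1.42.0 as alternatives. Benjamini-Hochberg adjustment ran over 13706 genes. Log2 CPM used a prior count of 2. Correlations used all 720 pairings of 6 libraries. The members and lists were chosen with earlier results of these data known. The genes named were all 9 members, from each list up to 3 called members or the 2 with the smallest p, the 6 nearest to Zap70 by each measure and every tested gene within 300 kb; motifs were chosen later. The model code was tested on artificial counts with known changes. It recovered 44% of 1.5-fold, 76% of 2-fold, 94% of 4-fold and 96% of 8-fold changes. Of its calls there, 7.74% were false. P-values measure the spread between these samples.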

Additional observations from a re-analysis of the deposited data

Results flagged for a closer look

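Cd2 stood out in 1 KO library. It was at 0.601 CPM in KO 574, whereas the next highest KO library was at 0.233 CPM and the lowest at 0.0856 CPM. The gap to the nearest library took 71.45% of the range, above the limit of 62.5% set for 6 libraries. This was 1 of 22 groups examined, and chance marks about 1 group in 20. The value rests on 17 fragments.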

How the results depend on the processing

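Over the 8 other fits, the 12 fits with 1 library left out and the differences within each number range, Zap70 stayed below 0, between −1.59 and −1.36 with 1 library left out. The number of genes called was 1190 with DESeq2, 57 in the libraries numbered 573 to 602 and 266 to 638 with 1 library left out, against 523; fewer samples enter the last 2, and the cause of the first was not tested. It moved by over 1.5 times without WT 573 (312), WT 777 (266), WT 778 (294), KO 574 (315), KO 588 (319) or KO 591 (324). With library totals only, 266 rose and 139 fell, against 236 and 287. DESeq2 called Syk, which made 2 members past its threshold with Zap70, whose own call repeats the value it was chosen for. Lck turned to 0.19 with the number range as a term, 0.0479 with limma-voom and 0.46 in libraries 573 to 602, and Lat to 0.0346 with library totals only and 0.0731 in libraries 573 to 602; the cause was not tested. Among neighbours, Cnnm4 was at −0.0339 with limma-voom, Cnnm3 at 0.0241 with library totals and 0.0013 with the number range as a term, and Tmem131 at 0.0105 with that term. Centring WT libraries on their number range, chosen after seeing the data, turned r of Zap70 with Cd247 to −0.1072. With 1 library left out, log2 changes ran from −0.17 to 0.12 for Lck, −0.24 to 0.18 for Lat, −0.16 to 0.58 for Cd2, −0.0895 to 0.0351 for Cnnm3, −0.0704 to 0.0935 for Cnnm4 and −0.14 to 0.0016 for Fkbpl. In the same way r with Zap70 ran from −0.45 to 0.79 for Syk, −0.63 to 0.22 for Lat and −0.0254 to 0.51 for Cd247 in WT, and from −0.73 to 0.38 for Syk, −0.34 to 0.78 for Cd3e, −0.024 to 0.80 for Cd3d and −0.0557 to 0.43 for Cd247 in KO. No relation passed under any of these settings (0 in each). With 1 library left out, too few pairings remained for a lone relation to pass the adjustment, whatever its r. Those counts of 0 therefore say nothing of stability. Cd3g in KO had an r of 0.89 to 0.97 in these runs. The calls of Lcp2, Actr1b and Vwa3b held with each library left out and were lost in the libraries numbered 573 to 602. Some myeloid genes were called only under other settings. Without KO 584, the KO library lowest in the macrophage sum, edgeR's test called Clec4f, Csf1r, Csf3r, Tyrobp and Fcgr4 higher (adjusted p from 0.0074 to 0.037). Csf3r was also called with library totals only, without the filter on low counts and without WT 590 (adjusted p from 0.043 to 0.049). No paired analysis was possible because the genotypes share no library number. Counts of 1 to 21 fragments limit what can be said of the CD3 genes.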

Other observations

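Themis, a T cell gene of the marker list, was singled out after its values were seen. It was at 0.405, 1.82 and 7.68 CPM in WT (lowest in WT 776, highest in WT 601) and at 0.813, 3.46 and 5.98 CPM in KO, with a log2 change of 0.12 ± 0.68 (SE). Over the 6 WT libraries its log2 CPM followed Zap70 with an r of 0.95, and over the 6 KO libraries with an r of −0.16. By deviations from the genotype means, its r was 0.39 over all libraries and −0.44 in libraries 573 to 602 alone. Cbl, which encodes a ubiquitin ligase that acts on activated receptor kinases, was also singled out afterwards and lay near the other end of the scale, with an r of −0.93 in WT and −0.85 in KO. It was at rank 11936 of 11952 genes by deviations from the genotype means, and its r by that measure was −0.85 in libraries 573 to 602 alone. These values were picked from many and carry no test.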
